A study of Mus musculus with 2 samples.

Results

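Leukocytes other than Kupffer cells were sought among single liver cells of C57BL/6 mice fed chow or a NASH diet (non-alcoholic steatohepatitis; high in fructose, fat and cholesterol) for 6.5 weeks. Each diet was represented by 1 library, made from a collagenase digest separated on Percoll and described as holding all liver cell types, and the sources used here do not give the number, age or sex of the mice. Every value below is a count of unique molecular identifiers (UMIs, each standing for 1 captured RNA molecule) or a share of barcodes, where a barcode stands for 1 droplet.

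A barcode was a member when it held at least 500 UMIs, had at most 50% of them from mitochondrial (mt-) genes, carried a UMI of at least 3 of the leukocyte genes Ptprc, Coro1a, Cd52, Cd53, Laptm5, Rac2, Ltb, Ccl5 and Plac8 with at least 0.2% of its UMIs from them, and had under 0.5% of its UMIs from 8 Kupffer cell genes. This chose 90 of 13240 deposited barcodes, of which 25 (of 7359) were chow and 65 (of 5881) NASH diet. These genes chose the members and are therefore not a finding about them. Because each diet has a single library, there was no test between diets and no replicate error to hold a difference against. Intervals are exact 95% binomial, Poisson or conditional intervals and cover counting error only. They take barcodes, or for CPM and ratios UMIs, as independent draws. Intervals of ratios therefore also leave out the spread between barcodes, and may be far too narrow where few barcodes hold a gene.

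The liver holds many kinds of leukocyte beside its resident macrophages, the Kupffer cells. T and natural killer (NK) cells pass through or stay in the sinusoids, where the chemokine receptor Cxcr6 is known as a mark of resident lymphocytes. Neutrophils and monocytes enter from the blood, B cells and plasma cells make antibody, plasmacytoid dendritic cells are known for type I interferon, and conventional dendritic cells present antigen on MHC class II to T cells.

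The members bore leukocyte genes beyond those of the rule. At least 2 of 14 leukocyte signalling genes that the rule did not use, among them the actin-bundling protein gene Lcp1 and the phosphatase gene Ptpn6, were read in 24 of 25 chow members, 96.0% (79.6 to 99.9), and 56 of 65 NASH diet members, 86.2% (75.3 to 93.5). In barcodes with hepatocyte genes and no leukocyte gene of the rule, the same held for 3.58% of 4048 in chow and 3.67% of 3354 under NASH diet. The median depth was 3444 and 4778 UMIs in members, against 3201 and 1520.5 in these hepatocyte barcodes. Members ranged from 756 to 41499 UMIs in chow and from 922 to 30885 under NASH diet, and 7 and 21 of them had under 2000.

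Members of the NASH diet library had more mitochondrial RNA. The median mt- share was 8.42% of UMIs in chow members and 13.7% in NASH diet members, and it exceeded 20% in 1 chow and 21 NASH diet members. Over all barcodes within the UMI and mt- limits the medians were 13.6% and 29.0%. Of the 21 NASH diet members over 20%, 16 also had under 2000 UMIs. All members carried some hepatocyte RNA, with 10 hepatocyte genes making up a median of 0.79% of UMIs in chow and 0.89% in NASH diet members, against 8.73% and 7.76% in hepatocyte barcodes. The part these features played in the differences between diets was not tested. Of 69 barcode sequences present in both libraries, 1 belonged to a member, under NASH diet.

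**Figure D1:**
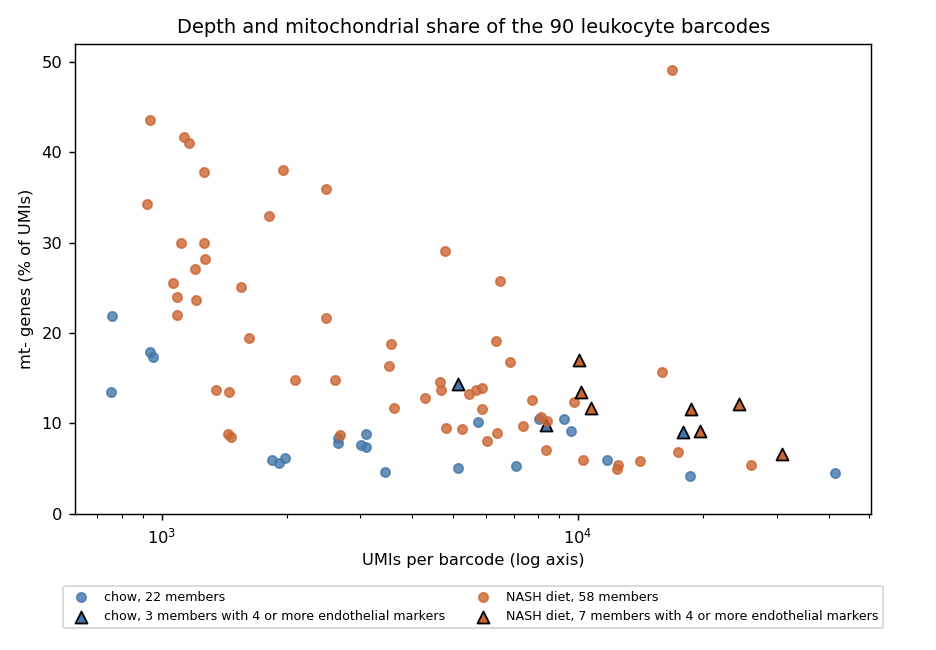
Depth and mitochondrial share of each member. The x axis is UMIs per barcode on a log scale and the y axis the percent of UMIs from mt- genes, coloured by diet, with circles for members and triangles for the 3 chow and 7 NASH diet members with at least 4 endothelial markers. NASH diet members over 20% lie mostly at the shallow end, and the triangles lie at 5145 UMIs or more.

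At the edges of the rule, 3 chow and 10 NASH diet members had exactly 3 of the 9 leukocyte genes, while 2 and 23 barcodes missed the rule with exactly 2, at a median of 1308 and 993 UMIs. The lowest leukocyte share of a member was 0.27% of UMIs in chow and 0.20% under NASH diet. A further 1 chow and 6 NASH diet barcodes had 3 genes but a smaller share, the highest of which was 0.04% and 0.20%. The highest Kupffer share of a member was 0.31% and 0.42%, and 23 of 25 and 51 of 65 members had no UMI of the 8 Kupffer genes.

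Members made up a larger share of the NASH diet library. They were 25 of 4577 barcodes within the UMI and mt- limits in chow, 0.546% (0.354 to 0.805), and 65 of 4448 under NASH diet, 1.46% (1.13 to 1.86), a log2 ratio of 1.42. Over all deposited barcodes the shares were 0.340% (0.220 to 0.501) and 1.11% (0.854 to 1.41). Both pairs of intervals lay apart, but with 1 library per diet they hold no spread between mice or preparations. An mt- limit of 20% moved the log2 ratio to 2.85, with shares of 0.675% in chow and 4.86% under NASH diet. Members then numbered 24 and 44. The NASH diet share thus rose while its members fell in number, because fewer barcodes were within the limits.

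Kupffer cells ran the other way. Kupffer barcodes met the same UMI, mt- and leukocyte gene limits as members, but had at least 0.5% of UMIs from the Kupffer genes. They numbered 55 in chow, 1.202% (0.907 to 1.56) of barcodes within the UMI and mt- limits, and 27 under NASH diet, 0.607% (0.400 to 0.882). Barcodes with Kupffer genes but too few leukocyte genes were not counted. Among members and Kupffer barcodes together, members were 31.2% (21.3 to 42.6) in chow and 70.7% (60.2 to 79.7) under NASH diet. Over the 5 other mt- limits and UMI minimums tried this share ran from 27.3% to 33.3% in chow and from 71.6% to 82.2% under NASH diet. This ratio sets leukocytes against Kupffer cells of the same library, and fewer recovered cells and loss of Kupffer gene RNA cannot be told apart in it.

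Members were sorted by the first criterion met among 6 genes. In order these were Siglech (a lectin of plasmacytoid dendritic cells; chromosome 7, 55768178 to 55778925), Cd3e (a T cell receptor subunit; chromosome 9, 44998740 to 45009627), Ighm (the antibody mu chain; chromosome 12, 113418558 to 113422730), at least 3 UMIs of S100a8 (a calcium-binding protein of neutrophils; chromosome 3, 90668978 to 90670035), Nkg7 (a cytotoxic granule protein; chromosome 7, 43437073 to 43438249) and Ly6c2 (a surface protein of inflammatory monocytes; chromosome 15, 75108158 to 75111970). Positions are those of GENCODE M21 on GRCm38. In hepatocyte barcodes each of these genes had a UMI in at most 0.247% of barcodes, the highest being Ighm in chow.

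Under this sort, chow and NASH diet members divided into 2 and 6 by Siglech, 5 and 13 by Cd3e, 4 and 13 by Ighm, 7 and 3 by S100a8, 2 and 5 by Nkg7, and 0 and 3 by Ly6c2, with 5 and 22 unsorted. More than 1 criterion was met by 11 chow and 26 NASH diet members, so the order of the genes mattered. A second sort, by which lineage had the most markers of a list with at least 2 detected, gave 2 and 9 plasmacytoid dendritic cell-like, 7 and 18 T cell-like, 3 and 3 B cell-like, 8 and 3 neutrophil-like, 0 and 4 NK cell-like and 4 and 17 barcodes sorted by monocyte and macrophage markers (called myeloid-list barcodes here), with 1 and 11 unsorted. The list markers chose these classes, so their presence in a class follows in part from the sort. Of the genes named below, Trbc2 is a T cell list marker, Ncr1 and Gzma NK markers, and Cd79a and Ms4a1 B cell markers. Lyz2, Ccr2, Csf1r and Chil3 are myeloid list markers, and S100a9, Retnlg, Csf3r and Cxcr2 neutrophil list markers. Of barcodes that the 6 genes sorted, 15 of 20 in chow and 30 of 43 under NASH diet kept their class.

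**Figure D2:**
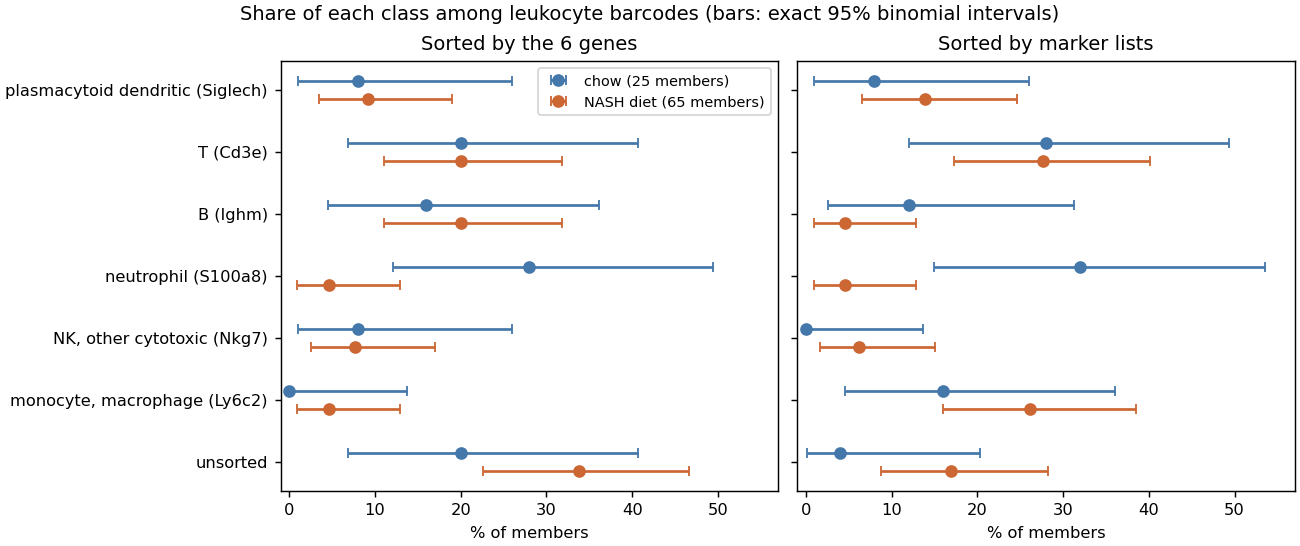
Share of each class among members, in percent, under the 6-gene sort (left) and the marker-list sort (right). Points are single libraries of 25 chow and 65 NASH diet members and bars are exact 95% binomial intervals; the neutrophil class is the one whose chow and NASH diet points lie farthest apart, at 28.0% and 4.62% in the left panel, and its intervals part only in the right panel.

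The unsorted members were of different kinds. Of those the 6 genes left out, 3 of 5 in chow and 15 of 22 under NASH diet had under 2000 UMIs, while 2 and 14 had at least 5 of 7 MHC class II genes. The 12 barcodes that the marker lists left unsorted, 1 chow and 11 NASH diet, had 1812 UMIs or fewer, and hepatocyte genes such as Mup3, Apoc1 and Alb (albumin) led the genes that set them apart from other members. Another sort, with lists for conventional dendritic and plasma cells and added after the values were seen, left 1 chow and 3 NASH diet members unsorted and called 0 and 11 members conventional dendritic cell-like. These 11 had a median of 1441 UMIs and of 27.0% mt-, and 2 of them had at least 4 endothelial markers. Some rested on 2 markers of the list. For chow a count of 0 of 25 allows a share of up to 12%.

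**Figure D3:**
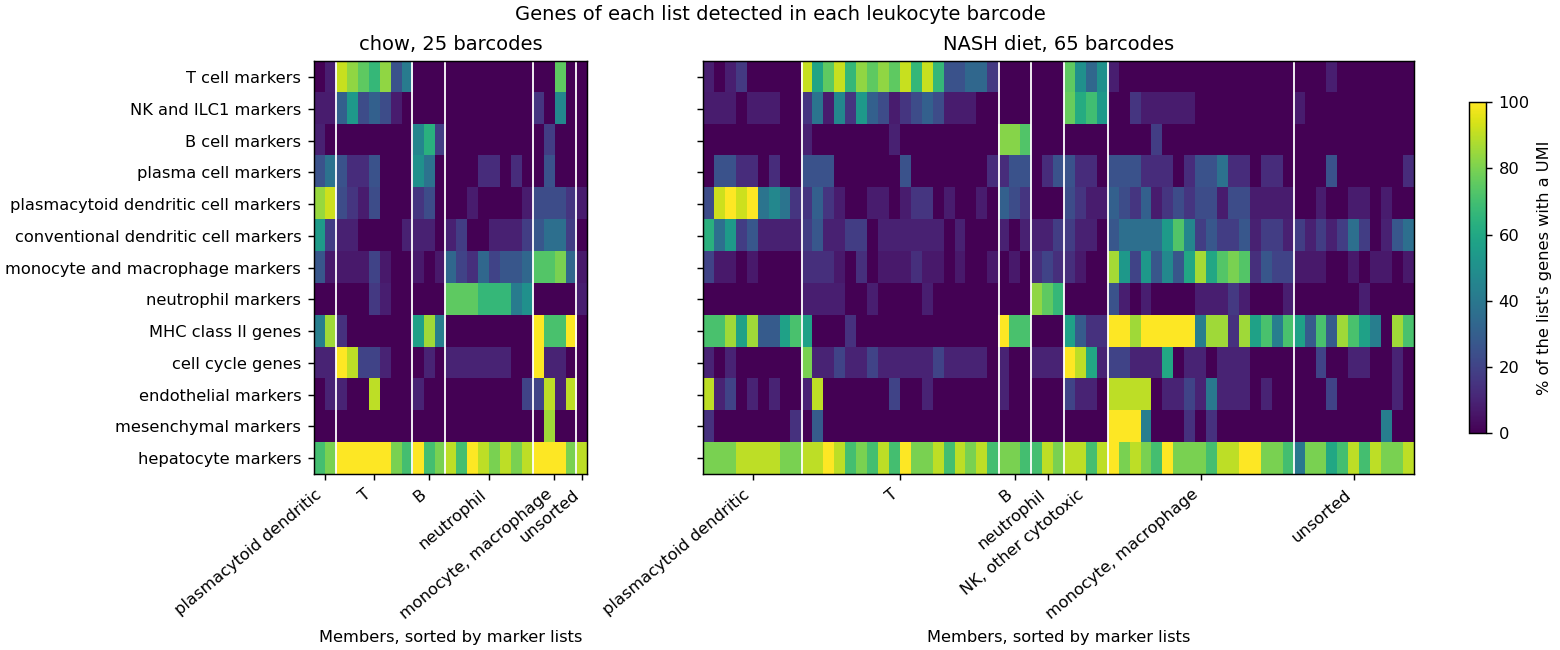
Percent of the genes of each list (rows) with a UMI in each member (columns), with chow on the left and NASH diet on the right, grouped by the marker-list sort and ordered by depth within a class. T cell, neutrophil and plasmacytoid dendritic cell blocks stand out in both libraries, while MHC class II genes run through the myeloid-list barcodes of both libraries (at least 5 of 7 genes in 4 of 4 chow and 13 of 17 NASH diet barcodes) and endothelial markers light up in some of the same. The T cell, neutrophil and plasmacytoid dendritic cell lists also sorted the columns.

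Neutrophils were the class with the largest difference in share between diets. By S100a8 the chow share was 28.0% (12.1 to 49.4) and the NASH diet share 4.62% (0.962 to 12.9), and these intervals overlapped slightly. By marker lists the shares were 32.0% (14.9 to 53.5) and 4.62% (0.962 to 12.9), and the intervals did not. Set against all barcodes within the limits, the S100a8-sorted barcodes were 0.153% (0.0615 to 0.315) in chow and 0.0674% (0.0139 to 0.197) under NASH diet. These intervals overlapped, and the diets were not told apart by them.

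The 8 chow neutrophil-like barcodes held from 66 to 1000 UMIs of S100a8 with a median of 183, and the 3 under NASH diet held 76, 145 and 794. S100a9, the partner of S100a8, ran from 30 to 990 UMIs in chow with a median of 288, and stood at 78, 136 and 748 under NASH diet. The ranges overlapped for both genes. The other members held 0 UMIs of S100a8 and of S100a9 in each class of the marker-list sort except neutrophil-like, so both genes were confined to the neutrophil-like barcodes among these 90. S100a9 was among the list markers that chose these barcodes, whereas S100a8 was not.

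Neutrophil-like barcodes of both libraries shared a set of genes for migration and inflammation. Il1b, the gene of the cytokine interleukin 1 beta, had a UMI in 8 of 8 chow and 3 of 3 NASH diet barcodes, from 4 to 40 UMIs with a median of 23 in chow and 9, 35 and 44 under NASH diet. Csf3r, the receptor of the neutrophil growth factor G-CSF, and the chemokine receptor Cxcr2 were each read in all 11 barcodes. Both are markers of the list that chose these barcodes, as is Retnlg, while Il1b is not. Retnlg, a neutrophil resistin-like gene, varied more, with 0 UMIs in 2 of the chow barcodes and 108 at most there, against 3, 12 and 194 under NASH diet. The chow barcode with 1839 UMIs had 1 UMI of Ighm and so fell to the Ighm class of the 6-gene sort, although it held 66 of S100a8.

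T cell-like barcodes by marker lists were 28.0% (12.1 to 49.4) of chow members and 27.7% (17.3 to 40.2) of NASH diet members, and 20% (6.83 to 40.7) and 20% (11.1 to 31.8) by Cd3e. Their share among leukocytes differed by less than the counting error. Cd3e itself was read in 4 of the 7 and 13 of the 18. Trbc2, the constant region of the T cell receptor beta chain, was read in 6 of 7 and 17 of 18, at medians of 6 and 7 UMIs.

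Most T cell-like barcodes of both libraries carried Cxcr6 (chromosome 9, 123806475 to 123811760). It had a UMI in 4 of 7 chow barcodes, 57.1% (18.4 to 90.1), at 4, 4, 5 and 6 UMIs, and in 12 of 18 NASH diet barcodes, 66.7% (41.0 to 86.7), from 1 to 10 UMIs. In hepatocyte barcodes Cxcr6 had a UMI in 1 of 4048 and 0 of 3354. Over all members its level was 131 CPM (UMIs of a gene per 1000000 UMIs) in chow and 138 CPM under NASH diet, a log2 ratio of 0.07 (-0.64 to 0.84).

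The T cell-like barcodes without Cxcr6 fell into 2 kinds. In 4 of them, 1 in chow and 3 under NASH diet, Cd8a or Cd8b1 (the chains of the cytotoxic T cell coreceptor) was read, at 3519, 5475, 6484 and 9244 UMIs of depth. The 3 NASH diet ones also held Ccr7, the receptor that guides lymphocytes into lymph nodes, at 3, 1 and 4 UMIs, and the chow one held 0. All 4 held Tcf7, a transcription factor of naive and memory T cells, at 1 or 2 UMIs each. The others, 2 in chow and 3 under NASH diet, had 1470 UMIs or fewer and none of Cxcr6, Ccr7, Cd8a and Cd8b1, and at that depth the absence of a gene was not read as a lack of it. Cxcr6 and Ccr7 were read together in 1 of the 25 barcodes, the NASH diet one with 26104 UMIs, 14 of them Ccr7, 6 Cxcr6 and 42 of the MHC class II gene H2-Aa.

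Among the Cxcr6 barcodes, coreceptors were seldom read. Cd8a or Cd8b1 was found in 1 chow and 1 NASH diet barcode with Cxcr6, the latter with 1 UMI of Cd8b1, and Cd4 in 1 and 3. Klrb1c, which encodes the NK receptor NK1.1, was read in 2 of 4 chow and 5 of 12 NASH diet barcodes with Cxcr6, and in 0 of the 9 T cell-like barcodes without Cxcr6. The chow barcode of 8364 UMIs and the NASH diet one of 10748, which held that Cd8b1 UMI, were among those with Klrb1c. Each also carried 9 endothelial markers and so held mixed RNA. Rgs1, a regulator of chemokine receptor signalling found in tissue lymphocytes, was read in 4 of 7 and 10 of 18 T cell-like barcodes. Foxp3, the regulatory T cell factor, was read in 1 NASH diet barcode, and the gamma delta T cell gene Trdc in 0 of 7 and 0 of 18.

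Effector genes differed from barcode to barcode. Ifng, the gene of interferon gamma, had a UMI in 0 of 7 chow barcodes, 0% (0 to 41.0), and in 5 of 18 NASH diet barcodes, 27.8% (9.69 to 53.5), at 1, 1, 1, 2 and 4 UMIs. The barcode of 10748 UMIs with endothelial markers was 1 of these 5, and the intervals come from single libraries. The intervals of the 2 diets overlapped. Gzma, a granule protease gene, was read in 1 T cell-like barcode, a chow barcode of 9631 UMIs with 243 of Gzma, 233 of the chemokine gene Ccl5, 6 of Gzmb, 6 of Gzmk, 7 of the checkpoint receptor Pdcd1 and 5 each of Cd8a and Cd8b1. Gzmk had 19 more UMIs in the chow barcode of 41499 UMIs and 0 in the NASH diet members. That level was at least 20.6-fold lower under NASH diet against a floor of 3 counts, but it rested on 2 chow barcodes.

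**Figure D4:**
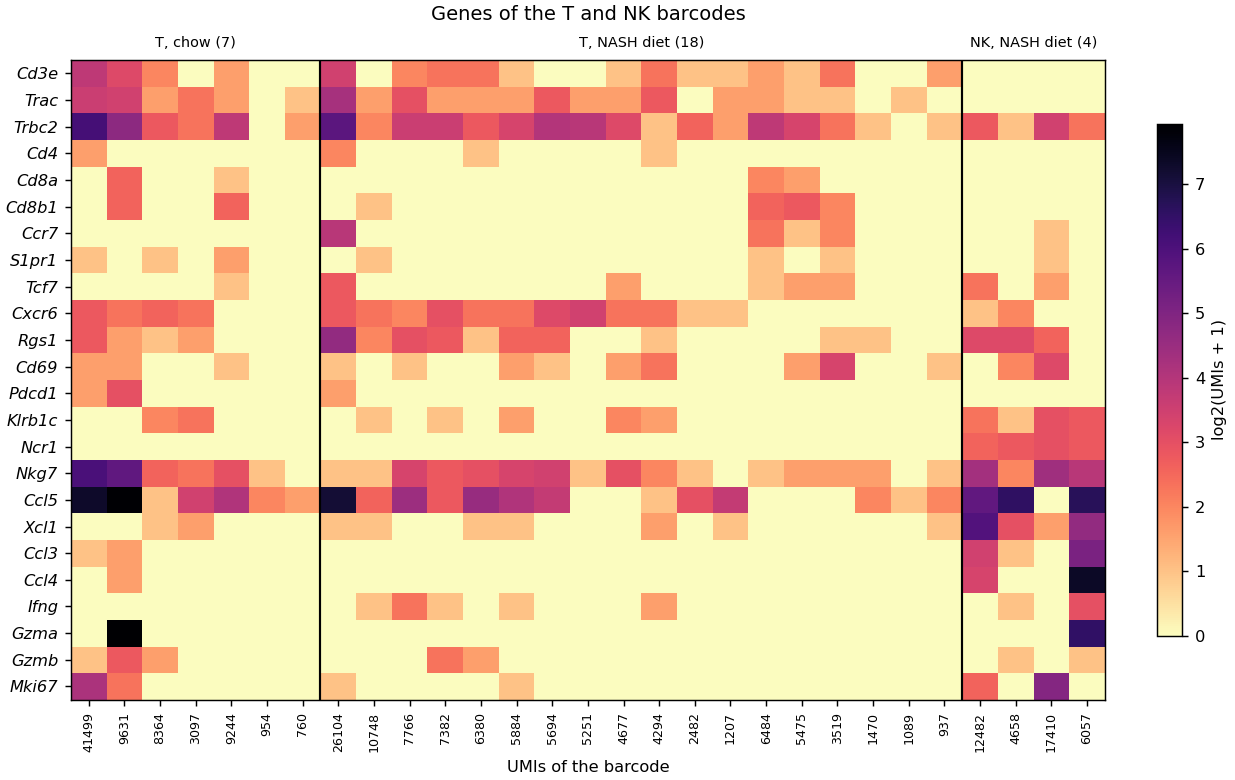
UMIs of 24 genes (rows; colour is log2 of UMIs + 1) in the T cell-like and NK cell-like barcodes (columns, labelled by their total UMIs), with Cxcr6 barcodes first in each T cell block. Ccr7 is filled in 4 NASH diet T barcodes, 3 of them with Cxcr6 empty, Gzma is filled in 1 chow T and 1 NASH diet NK barcode, and Ncr1 only in the 4 NK barcodes. Ncr1 and Gzma are markers of the NK list used in the sort.

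NK cell-like barcodes by marker lists were 4 of the 65 NASH diet members, 6.15% (1.70 to 15.01), and 0 of the 25 chow members. The chow count could hide a share of up to 12%, so these counts do not tell the diets apart. All 4 carried Ncr1, the NK cell activating receptor gene NKp46, at 5, 6, 6 and 7 UMIs, with 0 of Cd3e, although Trbc2 had a UMI in all 4. Ncr1 was read in 0 of the 25 T cell-like barcodes. As a marker of the NK list it helped to choose these classes, so its spread over them is partly set by the sort. Over all members Ncr1 had 0 UMIs in chow and 24 under NASH diet, at least 3.23-fold higher against a floor of 3 counts.

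Chemokine and granule genes were spread unevenly over these 4. The barcode of 6057 UMIs held 164 UMIs of Ccl4, 33 of Ccl3, 102 of Ccl5, 91 of Gzma and 7 of Ifng. The barcode of 12482 UMIs held 59 of Xcl1, the chemokine that draws Xcr1-bearing dendritic cells, and the one of 4658 held 93 of Ccl5. The barcode of 17410 UMIs had 0 of Ccl5 and of Gzma, and 29 of the proliferation gene Mki67. For Xcl1, with 3 UMIs in chow and 100 in NASH diet members (log2 ratio 3.15, 2.16 to 6.05), the difference between diets therefore came from few barcodes, 1 of which held 59.0% of the NASH diet UMIs, and for Ccl4, with 34 and 220, 1 barcode held 74.5%.

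The Ighm class of the 6-gene sort was mostly not made of B cells. Of its 4 chow and 13 NASH diet barcodes, 2 and 3 were B cell-like by marker lists, and the median number of 11 B cell markers in the class was 2.5 in chow and 0 under NASH diet. The remaining NASH diet barcodes were 4 myeloid-list, 2 T cell-like, 2 NK cell-like, 1 plasmacytoid dendritic cell-like and 1 unsorted, while the remaining chow barcodes were 1 neutrophil-like and 1 myeloid-list. Ighm had a UMI in 8 of 25 chow and 22 of 65 NASH diet members, against 0.247% and 0.119% of hepatocyte barcodes.

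By marker lists, B cell-like barcodes numbered 3 in each library, or 12% (2.55 to 31.2) of chow members and 4.62% (0.962 to 12.9) of the other. The NASH diet ones held 12, 15 and 18 UMIs of Cd79a, part of the B cell receptor, with 9, 10 and 12 of Ighm and 1, 6 and 7 of Ms4a1, the gene of CD20. The chow ones held 1, 6 and 23 of Cd79a. The shallowest of these, with 756 UMIs, rested on 2 B cell markers.

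Antibody-secreting cells were nearly absent from the members. The chow barcode with 23 UMIs of Cd79a carried 1066 of Ighm, 2163 of Igkc (the kappa light chain), 148 of Jchain (the chain that joins secreted antibody) and 0 of Igha, within 7087 UMIs. It held 97.7% of all Ighm UMIs in chow members. In the NASH diet library the barcode with most Jchain was not a member, since it had 2 of the 9 leukocyte genes. That barcode held 1735 of Jchain, 11162 of Igkc, 4913 of Igha (the alpha chain) and 0 of Ighm within 24402 UMIs. The rule thus kept one such cell and left out the other, and Jchain in members (148 UMIs in chow, 0 under NASH diet) does not compare the diets.

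Plasmacytoid dendritic cells sorted by Siglech took 8% (0.984 to 26.03) of chow members and 9.23% (3.46 to 19.0) of NASH diet members, with overlapping intervals. Siglech stood at 13 and 20 UMIs in the 2 chow barcodes and at 1, 3, 12, 12, 21 and 26 in the 6 NASH diet barcodes. The 2 lowest NASH diet values were in barcodes of 2483 and 1260 UMIs with 36.0% and 29.9% mt-.

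Most of these barcodes held most of the markers of their name, with a median of 11.5 and 12 of 13 other plasmacytoid dendritic cell markers. The NASH diet barcodes of 1260 and 2483 UMIs held only 5 each. Bst2, a surface protein of these cells, ranged from 3 to 46 UMIs over the 8 barcodes. The transcription factor genes Tcf4 and Irf8 reached 21 and 30, and both stood at 0 in the barcode of 1260 UMIs. Klk1 and the mitochondrial subunit gene Cox6a2 led the genes that set them apart from other members. Ighm was read in 6 of the 8, at 7 to 11 UMIs, and Ly6c2 in all 8, at 2 to 57. Both of these sort genes therefore also marked plasmacytoid dendritic cells, which the order of the sort placed first.

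Monocytes by Ly6c2 were 0 of 25 chow and 3 of 65 NASH diet members, 4.62% (0.962 to 12.9). By marker lists the myeloid-list class was larger, at 4 of 25 chow and 17 of 65 NASH diet members, but it was mixed. The genes that led it against other members included the stromal genes Dcn, Colec11, Cxcl12 and Bgn beside the myeloid genes Chil3, Lyz2 and Clec4a3, and it held the NASH diet barcode of 19639 UMIs with 172 of Dcn and 0 of Lyz2, so that its share was not compared between diets. Lyz2, the lysozyme gene of myeloid cells, was read in 4 of 4 and 15 of 17 of these barcodes, at medians of 23 and 19 UMIs. Ccr2, the receptor that brings monocytes out of the marrow, was read in 3 of 4 and 13 of 17, and Csf1r, the receptor of the macrophage growth factor, in 3 of 4 and 10 of 17.

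Ly6c2 marked few of these barcodes, 1 of 4 in chow and 4 of 17 under NASH diet. The clearest monocyte by these genes was a NASH diet barcode of 10294 UMIs with 22 of Ly6c2, 160 of Lyz2, 5 of Csf1r and 0 of H2-Aa. A NASH diet barcode of 8360 UMIs held 239 of Lyz2 and 10 of Ccr2 with 1 of Ly6c2 and 0 of H2-Aa. In chow the barcode of 11719 UMIs held 175 of Lyz2 and 10 of Ccr2, together with 3 of Cd3e and 13 of Nkg7, so that it carried T or NK cell RNA as well.

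MHC class II genes ran through many members of both libraries. At least 5 of 7 such genes were read in 6 of 25 chow, 24.0% (9.36 to 45.1), and 26 of 65 NASH diet members, 40% (28.04 to 52.9). H2-Aa, the alpha chain of the class II molecule I-A, had a UMI in 32.0% (14.9 to 53.5) of chow members and 52.3% (39.5 to 64.9) of NASH diet members. Thinned to 500 UMIs per barcode the shares were 20% (6.83 to 40.7) and 32.3% (21.2 to 45.1), against 0.173% and 0.328% of hepatocyte barcodes. All these intervals overlapped. In summed members H2-Aa stood at 1329 CPM in chow and 2208 CPM under NASH diet, but 1 chow barcode, of 18629 UMIs, held 80.3% of the chow UMIs. Without the barcodes of lowest leukocyte share, which include that one (leukocyte genes at least 0.5% of UMIs), the median log2 ratio of the class II list was 3.08 in place of 0.68. It was 0.37 without the deepest member of each library and 1.22 as a mean over barcodes.

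Conventional dendritic cell genes were read outside the plasmacytoid class in both libraries, but Flt3, Cd209a and Xcr1 there only under NASH diet. In chow the barcode of 18629 UMIs held 3 of Naaa and 4 of the integrin gene Itgax. The chow barcode of 17913 UMIs held 1 each of Naaa and Zbtb46. Flt3, the growth factor receptor of dendritic cells, was read in 1 of 25 chow and 10 of 65 NASH diet members, and Cd209a, a lectin of some dendritic cells, in 1 and 8. The single chow barcode with these genes was sorted by Siglech, as were 4 of the 10 NASH diet barcodes with Flt3 and 3 of the 8 with Cd209a. Xcr1, the receptor of cross-presenting dendritic cells, was read in 0 chow and 3 NASH diet members, 2 of them at 1262 UMIs or fewer. The barcode with most Xcr1 held 9 UMIs of it, 3 of Clec9a, 9 of Flt3, 31 of Naaa and 150 of H2-Aa within 14115 UMIs. Another, of 12414 UMIs, held 8 of Cd209a, 8 of Ccr2 and 159 of H2-Aa. Ccr7, which mature dendritic cells use to leave tissue, had 29 UMIs in a barcode of 10074 UMIs with 38 of H2-Aa, which also carried 9 of 10 endothelial markers and which the first marker lists sorted as plasmacytoid dendritic cell-like.

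Of the 11 genes in the conventional dendritic cell list, 7 passed the filter on low counts (at least 20 UMIs in at least 5 members), and 6 of these were at least 2-fold higher in NASH diet members, with 0 lower. A gene could pass through the library where it was high, so this count is a description and no support for a difference, as are those of the lists below. The 4 genes that did not pass had 0 and 11 (Xcr1), 3 and 5 (Clec9a), 1 and 13 (Zbtb46) and 2 and 8 UMIs (Ifi205). Over all 4418 genes that passed, 323 were higher by 2-fold, 7.31%, and 178 lower, 4.03%. The list's median log2 ratio was 1.31, against 0.04 for all genes. Ccr7 had the largest ratio in the list, with 0 UMIs in chow and 52 under NASH diet, at least 7.002-fold higher against a floor of 3 counts, but 22 of these UMIs lay in T cell-like barcodes, 1 in an NK cell-like one and 29 in the barcode of 10074 UMIs with endothelial markers. Naaa, a lysosomal amidase gene of type 1 dendritic cells, had 5 and 50 UMIs, a log2 ratio of 1.70 (0.70 to 3.70), and the Xcr1-rich barcode of 14115 UMIs held 62.0% of the latter. Cst3, the cystatin C gene that dendritic cells and macrophages express strongly, had most UMIs, at 1084 and 2556 CPM, a log2 ratio of 1.23 (1.01 to 1.47).

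Some members carried genes of more than one liver cell type. At least 4 of 10 endothelial markers were read in 3 of 25 chow, 12% (2.55 to 31.2), and 7 of 65 NASH diet members, 10.8% (4.44 to 20.9). They were deep, with medians of 8364 and 18661 UMIs against 3094.5 and 3948.5 for the other members. Of these, 1 chow and 4 NASH diet barcodes also had at least 3 of 7 mesenchymal markers. The chow barcode held 218 UMIs of Dcn, the matrix protein gene decorin, within 17913 UMIs, and 3 of the NASH diet barcodes held 172, 91 and 69 within 19639, 24439 and 30885. Stab2, a scavenger receptor of sinusoidal endothelium, stood at 6 in the chow barcode and at 12, 11 and 2 in these.

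Most of these barcodes lay in the myeloid-list class, 2 of its 4 chow and 5 of its 17 NASH diet barcodes, where Dcn was the leading gene. Of all 90 members, 1 was among a preset number of highest Scrublet scores, while Scrublet's own threshold called 0 doublets. This ranking cannot tell which of the other members were doublets. Leaving the endothelial-marker barcodes out changed the log2 ratio of the members' share little, from 1.42 to 1.44. The number of genes at least 2-fold higher in NASH diet members was 323 with these barcodes, of 4418 that passed the filter, and 206 without them. Leaving them out also cut the summed UMIs from 175287 to 143865 in chow and from 433900 to 309263 under NASH diet. Fewer genes could then pass the filter, so the counts lack a common base. What endothelial RNA added to the difference was not tested.

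Cell cycle genes were read in a few deep barcodes. At least 3 of 10 were found in 3 of 25 chow, 12% (2.55 to 31.2), and 5 of 65 NASH diet members, 7.69% (2.54 to 17.0). The chow barcodes were the T cell-like ones of 41499 and 9631 UMIs and the class II-rich one of 18629, with 413, 60 and 218 UMIs of the list and 17, 4 and 14 of Mki67. The NASH diet barcodes were 3 of the 4 NK cell-like ones, with 282, 87 and 36 UMIs of the list, a T cell-like one with 107 and a myeloid-list one with 32.

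In summed members 8 of the 9 cell cycle genes that passed the filter were at least 2-fold lower under NASH diet, against 4.03% of all genes. Their median log2 ratio was -1.46. Without the deepest member of each library the median was -0.59. A single T cell-like chow barcode thus held much of this difference. Hmgb2, a chromatin protein gene, had most UMIs, with 380 and 351, and 55.8% of the chow UMIs were in 1 barcode.

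Summed over members, the neutrophil list stood lowest under NASH diet, in the direction of the neutrophil barcodes' share. Of its 12 genes 9 passed the filter and all 9 were at least 2-fold lower, against 4.03% of all genes, with a median log2 ratio of -2.09. S100a9 stood at 16270 CPM in chow and 2217 CPM under NASH diet, a log2 ratio of -2.87 (-2.98 to -2.77). All its UMIs lay in the 8 chow and 3 NASH diet neutrophil-like barcodes, and the interval leaves out the spread between them. The neutrophil list gave the same result as the count of barcodes (8 of 25 against 3 of 65), and is no separate support for it.

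Several other lists, some shared by many leukocytes and some of 1 lineage, had medians nearer to that of all genes. Over all genes 7.31% were higher and 4.03% lower by 2-fold. With so few genes per list, the counts below are a description only. Of the 14 signalling genes 0 were higher and 0 lower by 2-fold, with a median of -0.13. MHC class I genes had a median of 0.13 with 0 of 9 past 2-fold either way, and T cell markers a median of -0.45 with 1 of 11 lower. Plasmacytoid dendritic cell markers had a median of 0.48, with Irf8 the 1 of 12 past 2-fold, at 177 and 424 CPM. Of the 11 interferon response genes that passed the filter, 1 was higher and 1 lower, with a median of -0.37. The higher one was Rsad2, the antiviral viperin gene, with 3 and 33 UMIs, and the lower one Ifit3, with 11 and 9, of which 1 barcode held 72.7% in chow. Monocyte and macrophage markers had a median of 0.08, with 2 of 10 higher and 0 lower by 2-fold. These were F13a1, a clotting factor subunit gene, with 3 and 21 UMIs, and Chil3, a chitinase-like gene of activated and marrow-derived myeloid cells, with 10 and 57, 90% of the former in 1 barcode.

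The immediate early list, genes induced within minutes by stimulation or handling, had 5 of 13 genes higher by 2-fold and 0 lower, against 7.31% and 4.03% of all genes, with a median of 0.31 that turned to -0.36 as a mean over barcodes. Egr1, a zinc finger factor, stood at 7 UMIs in 3 chow members and 99 in 18 NASH diet members, a log2 ratio of 2.25 (1.42 to 3.87) that was 1.43 without the endothelial-marker barcodes, while Fos stood at 565 and 558 CPM. The other 4 were Atf3, Fosb, Nr4a1 and Jun, with log2 ratios from 1.003 to 1.75.

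In the T cell residency and checkpoint list 2 of 7 genes were higher and 1 lower by 2-fold, against 7.31% and 4.03% of all genes. Rgs1 was the most different there, with 27 UMIs in 7 chow members and 186 in 25 NASH diet members, a log2 ratio of 1.42 (0.89 to 2.12). T cell-like barcodes held 11 and 54 of these UMIs and myeloid-list barcodes 16 and 100, and among T cell-like barcodes the share with Rgs1 was 4 of 7 and 10 of 18. Itga1, the integrin CD49a of resident lymphocytes, had 15 and 96 UMIs, and the endothelial-marker barcodes held 15 and 86 of them. The lower gene was Tox, a factor of chronically stimulated T cells, with 11 and 10 UMIs. Of the inflammatory cytokine genes 5 of 13 passed the filter, with Ccl4 higher and Il1b, Cxcl2 and Cxcl10 lower by 2-fold. Il1b stood at 970 and 240 CPM in the sums, although its UMIs in single neutrophil-like barcodes, which held most of them, overlapped between diets. All 64 chow UMIs of Cxcl10 lay in 1 barcode.

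**Figure D5:**
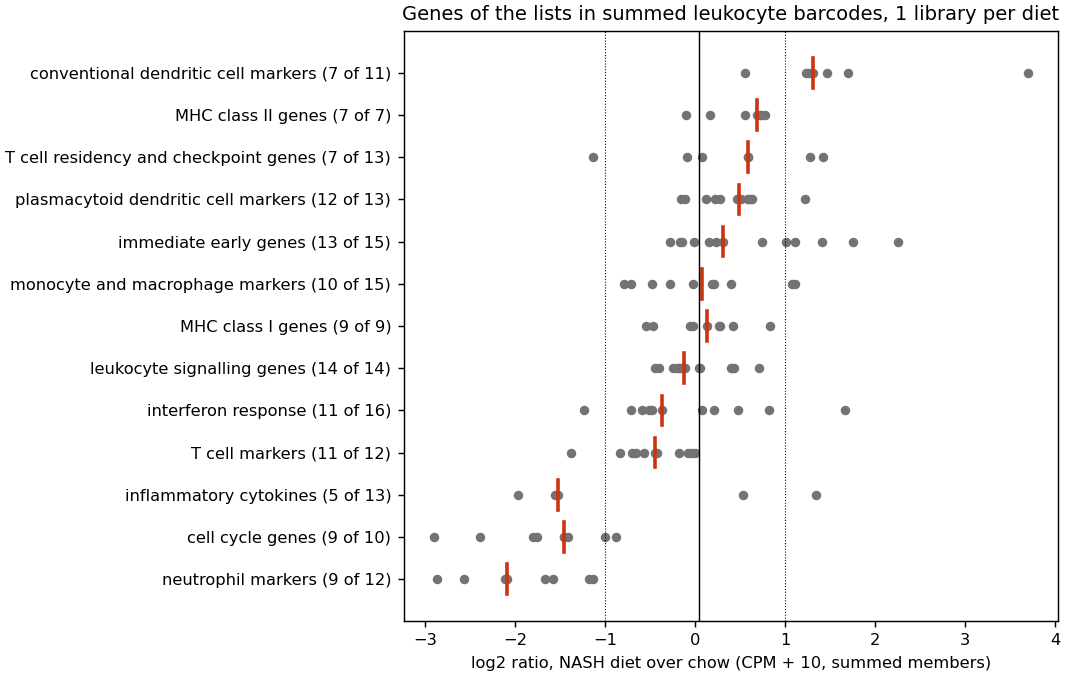
Log2 ratios (NASH diet over chow, of CPM + 10 in summed members) of the genes of 13 lists that passed the filter, as grey points, with the list's median in red. The solid line is the median of all genes, 0.04, and the dotted lines are 2-fold; neutrophil markers lie wholly below and conventional dendritic cell markers wholly above the solid line.

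Genes most higher and most lower were picked by a rule of size. It asks for at least 2 times the hepatocyte barcodes' level, but only in the library where the gene is higher. It also asks for under 33% of the gene's UMIs in any 1 barcode of a library that has at least 10 of them. Among the 10 genes most lower by this rule, 2 (Mmp9 and Il1r2) were of the fixed neutrophil list. Wfdc17, a small secreted protein gene of myeloid cells (chromosome 11, 83703991 to 83706268), counted 378 UMIs over 9 chow members and 101 over 17 NASH diet members, a log2 ratio of -3.16 (-3.54 to -2.89), and the 10 S100a8-sorted barcodes of both libraries held 368 of them. Mmp9, a matrix protease gene, had 46 and 23 UMIs (-2.11, -3.10 to -1.56). Il1r2, a decoy receptor for interleukin 1, had 16 and 6. Pglyrp1, which binds bacterial cell wall, had 45 and 25, and the protease inhibitor gene Slpi 56 and 37. Ratios of Socs3, Glipr2, Ccl6, Ccdc174 and Rb1cc1 ran from -1.74 to -1.27. That of Socs3 was -0.76, under 2-fold, with at least 2000 UMIs per barcode and -3.29 as a mean over barcodes. Socs3 was also lower under NASH diet in hepatocyte barcodes, at 62.2 CPM in chow and 16.1 CPM under NASH diet. The part of hepatocyte RNA in its ratio was not tested.

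The 10 genes most higher rested on fewer chow counts. Timp3, a protease inhibitor gene (chromosome 10, 86300372 to 86349506), counted 5 UMIs in chow against 131 over 7 NASH diet members, a log2 ratio of 3.02 (2.14 to 5.05), and Cyp26b1, which degrades retinoic acid, 1 and 44. Without the members with endothelial markers these ratios were 0.00 and 0.72. Tbc1d4, a regulator of vesicle traffic, had 1 and 41 UMIs, with a ratio of 2.73 (1.49 to 9.39) that was 2.47 without those members but 0.86, under 2-fold, as a mean over barcodes. Stat6, the transcription factor of interleukin 4 signalling, had 1 UMI in chow and 25 in 16 NASH diet members (2.11, 0.73 to 8.70). Vwa5a had 0 and 21, at least 2.83-fold higher against a floor of 3 counts. Inpp5k, Cerk, Sesn3 and Phf14 had 1 UMI each in chow and 30, 27, 26 and 24 under NASH diet. Egr1, described above, was also among these genes. In chow, members stood below hepatocyte barcodes for Egr1 (39.9 against 197 CPM), Vwa5a, Sesn3, Stat6 and Phf14, and above them for the others.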

How the data were processed

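UMI counts per gene and barcode were deposited by the authors with no normalization. Cell Ranger wrote them, as version 3.0.2 per the file headers and version 3.1.0 per the submitters' processing notes, which also name Seurat and the build mm10. The labels name the 10x 3' kit, version 3. Each library's own matrix was used (71635757 chow and 39440182 NASH diet UMIs), and the deposited merged matrix, which keeps 86.4% of the chow UMIs, as an alternative.

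Members, lineage criteria and gene lists were chosen with earlier results of these data known. Counts of members were summed per library, scaled to CPM (per 1000000 UMIs), and compared as log2 of (CPM + 10) for genes with at least 20 UMIs in at least 5 members. Ratio intervals condition on the summed counts and leave out the pseudocount and the spread between barcodes. With 1 library per diet nothing was tested, and no class held 20 barcodes in both libraries, so list medians were not computed within classes. Barcodes for the background held at least 5% of UMIs from hepatocyte genes. Named genes were the 10 most higher and 10 most lower, with mt-, ribosomal and unnamed genes left out. They had at least 2 times the hepatocyte level in the library where the gene is higher. They also had under 33% of a library's UMIs in 1 barcode (a limit applied to genes with at least 10 UMIs in it). Scrublet (scanpy 1.11.5) called 0 doublets by its own threshold, which therefore did not work, so none were removed, and its 433 and 277 highest scores served as an alternative. Of 31053 gene IDs, 30934 matched GENCODE M21. Intervals are Clopper-Pearson or exact Poisson (scipy), and the ratio code was tested on simulated counts. Columns left unmatched numbered 0.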

Additional observations from a re-analysis of the deposited data

How the results depend on the processing

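No paired analysis was possible because each diet has 1 library. Every sum weights deep barcodes, and with 25 chow members a class at 0 may still hold up to 12% of them. In all settings tried, members took a larger share of the NASH diet library, with log2 ratios from 1.18 to 2.85. The cause was not tested for any change below.

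Limits on mt- and UMIs change the number of barcodes that a share is taken of, as well as the members. The log2 ratio of the members' share was 2.85 with an mt- limit of 20%, where members numbered 24 in chow and 44 under NASH diet. The NASH diet share was then 4.86%, and 2.36% with a limit of 30%, 1.97% with at least 1000 UMIs, 2.46% with at least 2000 UMIs (chosen after seeing the data), 0.989% with leukocyte genes at 0.5% of UMIs or more, and 1.11% of all deposited barcodes, where the chow share was 0.340%.

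With barcodes that meet 1 criterion alone, the Siglech class was 0% in both libraries and the Cd3e class 0% in chow and 1.54% under NASH diet. With marker lists in place of the 6 genes, the chow cytotoxic class was 0%, the monocyte class 16% in chow and 26.2% under NASH diet, the unsorted 4% and 16.9%, and the NASH diet B class 4.62%. The longer lists, added after seeing the data, gave 0%, 16% and 21.5%, 4% and 4.62%, and 4.62% for these. Unsorted members were 5% in chow with leukocyte genes at 0.5% or more and 15.9% under NASH diet with at least 2000 UMIs.

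Genes at least 2-fold higher numbered 507 with Kupffer genes below 0.25%, 206 without members with endothelial markers, 214 with a pseudocount of 20 CPM, 1002 with no filter on low counts, 90 with at least 50 UMIs per gene and 485 as a mean over barcodes. Lower genes numbered 665 with no filter, 75 with at least 50 UMIs and 415 as a mean over barcodes. Some of these settings also change how many genes pass the filter (4418 in the main setting), so the counts lack a common base.

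Some list medians turned sign. As a mean over barcodes they were -0.10 in place of 0.25 (hepatocyte), -0.48 in place of 0.54 (endothelial) and -0.36 in place of 0.31 (immediate early), and with no filter 0.97 in place of -0.64 (mesenchymal) and 0.53 in place of -1.52 (inflammatory cytokines). The mean over barcodes also gave 1.22 in place of 0.68 (MHC class II) and -0.82 in place of -1.46 (cell cycle), and no filter 0.30 in place of 0.98 (cytotoxic) and 0.74 (immediate early). The inflammatory cytokine median was -0.38 with leukocyte genes at 0.5% or more, -0.47 with Kupffer genes below 1%, -0.41 without endothelial-marker members and -0.57 with at least 2000 UMIs, where the cytotoxic median was 1.97. With leukocyte genes at 0.5% or more the MHC class II median was 3.08 and the cell cycle median -1.12. Without the deepest member of each library, a choice made after seeing the data, medians were 0.37 (MHC class II), -0.59 (cell cycle) and -0.57 in place of 0.24 (lipid-associated macrophage). The share of members with a UMI was 11.5% for Lyz2 in the chow part of the merged matrix. Without thinning it was 24% in chow and 44.6% under NASH diet for Irf8, and under NASH diet 32.3% for Trbc2, 21.5% for Cxcr6 and 52.3% for H2-Aa. Log2 ratios of named genes moved for Tbc1d4 to 0.86 and for Socs3 to -3.29, Wfdc17 to -3.75, Pglyrp1 to -2.93, Ccl6 to -2.19 and Timp3 to 2.08 as a mean over barcodes, for Socs3 to -0.76 with at least 2000 UMIs, for Wfdc17 to -3.62 without the deepest members, and for Timp3 to 0.00 and Cyp26b1 to 0.72 without endothelial-marker members.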
